A study of Homo sapiens with 12 samples.

Results

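Transcripts of 9 genes that carry iron into the cell, store it, let it out or sense it were followed in 3 human cancer cell lines. The genes were named for these roles, as the importers and reductase TFRC, SLC11A2 and STEAP3, the ferritin genes FTH1 and FTL, the ferritin receptor NCOA4, the exporter SLC40A1 and the iron sensors IREB2 and ACO1. Of the 57820 gene rows in the count table, 8 matched a member by identifier, and these 8 were all among the 17096 genes tested. NCOA4, the receptor that delivers ferritin to autophagosomes, is a member whose counts were not analysed here.

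The study asked how MYC bears on the response to tipifarnib, an inhibitor of the enzyme farnesyltransferase, which attaches a lipid to RAS and other proteins. RNA-seq was done on 3 carcinoma lines, A549 from lung, SKOV3 from ovary and MDA-MB-231 from breast. MYC cells had been transduced with a lentiviral vector for full-length human MYC and selected as stable puromycin-resistant cells, and control cells, labelled WT, had been given virus of a pCDH-CMV control plasmid. Each was cultured for 48 h with tipifarnib, at 10 µM in A549 and 20 µM in SKOV3 and MDA-MB-231, or with DMSO. The 4 groups were MYC cells with tipifarnib, control cells with tipifarnib, MYC cells with DMSO and control cells with DMSO. Each group held 3 libraries, 1 per line, so the replicates of a group are different lines and p-values measure the spread between these samples only. Puromycin selection is described for the MYC cells, and whether control cells were selected too is not given in the sources used here.

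The 12 libraries held 20481363 to 26962994 gene counts each. MYC, the introduced gene (ENSG00000136997.10), was higher in MYC than in control cells in 6 of 6 matched pairs, by 2.61 ± 0.24 on the log2 scale (standard error of the fit; edgeR adjusted p = 0.00745). AKR1B10, a marker of A549, lay at 1410 to 2930 CPM there (CPM, gene counts scaled to library size with TMM factors) and at or under 6.29 CPM in the other lines. ERBB2 and PAX8 were highest in SKOV3 and ZEB1 in MDA-MB-231 without overlap, while WT1, listed as a marker of SKOV3, and TGFBI, listed for MDA-MB-231, were lower there than in A549. AKR1C1, listed for A549, reached 330 CPM there and 562 CPM in SKOV3, and MSLN, VIM and CAV1 overlapped between lines. COL1A1, a fibroblast collagen gene, reached 304 CPM in SKOV3, and the other 8 measured markers of blood, vessel and stromal cells stayed at or under 4.99 CPM in every library.

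Cells take up iron bound to transferrin through the transferrin receptor, reduce it in the endosome and pass it to the cytosol, where ferritin shells store what is not used and ferroportin carries the excess out. The RNA-binding proteins IRP1 and IRP2 bind hairpins called iron-responsive elements when iron is scarce. Binding in a 5′ UTR blocks translation of ferritin and ferroportin, and binding in the 3′ UTR of the transferrin receptor message slows its decay. Ferritin genes are also targets of the oxidative stress factor NRF2, and MYC has been reported in other cells to repress FTH1 and to raise IREB2 and TFRC. RNA counts see the effect of these elements on message level, as for TFRC, but not on translation, as for ferritin.

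The elements are shown because they set apart members whose message level can follow the sensors from those whose translation does. A hairpin pattern was searched in protein-coding transcripts of GENCODE 29, as an unpaired C, a stem of 5 bases, the loop CAGTGN and the paired stem, G to T pairs included. Each match is printed from the longest searched transcript of its gene that held it. Each sequence runs 5′ to 3′ on the transcript strand, the capitals mark the loop, and positions count from the transcript's start.
FTH1, 5′ UTR, positions 65 to 81: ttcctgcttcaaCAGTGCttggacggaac
FTL, 5′ UTR, positions 41 to 57: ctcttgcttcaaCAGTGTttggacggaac
SLC40A1, 5′ UTR, positions 205 to 221: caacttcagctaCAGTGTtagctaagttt
TFRC, 3′ UTR, positions 3394 to 3410: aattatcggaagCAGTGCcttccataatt
TFRC, 3′ UTR, positions 3798 to 3814: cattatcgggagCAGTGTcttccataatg
TFRC, 3′ UTR, positions 3863 to 3879: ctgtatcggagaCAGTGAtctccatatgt
TFRC, 3′ UTR, positions 3910 to 3926: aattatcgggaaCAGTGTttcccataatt
The stated positions span the unpaired C to the end of the stem, and 6 more bases are printed on each side. FTH1, FTL and SLC40A1 each held 1 match in the 5′ UTR, as did 0.158% of the 19652 genes searched. TFRC held 4 matches within its 3′ UTR, and 0.651% of genes held any match in theirs. This pattern was not found in the transcripts searched for SLC11A2, ACO1, IREB2 and STEAP3. Nor was it found for EPAS1, described below as carrying such an element. A missing match with this strict pattern therefore does not show that an element is absent. In RefSeq promoter windows of build GRCh38.p14, which run from 250 bases before to 50 after the start, the MYC binding motif CACGTG was in none of the windows of the 7 measured members that had one, and in 7.26% of all windows. The core of the antioxidant response element, TGACNNNGC, was also in none of these, and in 13.3% of all windows. Both strands were searched. A missing match in these short windows does not show that a gene lacks the motif elsewhere. FTH1 had no window and was not searched. For NCOA4, 1 of 2 windows held TGACNNNGC and neither held CACGTG.

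In tipifarnib the ferritin heavy chain gene rose and the sensor gene IREB2 fell over the 3 lines, while FTL and STEAP3 rose in some lines and fell in others. The words rose and fell are kept for an adjusted p under 0.05 (edgeR quasi-likelihood test, Benjamini-Hochberg adjustment over all 17096 genes). CPM are shares of a library, so in these bulk cultures fewer expressing cells and less RNA per cell cannot be told apart. Over both genotypes 2 of 8 members passed, FTH1 upward and IREB2 downward, where 11.3% of all genes passed, 4.66% upward and 6.63% downward. Within the lines 3 of 8 members passed in A549, all downward, against 8.03% of all genes (3.56% upward, 4.47% downward). For SKOV3 cells 4 members passed, 2 in each direction, against 14% of genes (6.57% upward, 7.48% downward). In MDA-MB-231 cells 5 passed, 2 upward and 3 downward, against 22.7% of genes (10.6% upward, 12.1% downward). Within-line tests take each line's 2 pairs as replicates and treat a difference between MYC and control cells in their response as error.

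With MYC, TFRC and SLC11A2 were higher and SLC40A1 and ACO1 lower in every matched pair. Over the 3 lines none of them passed the edgeR test. Over both treatments 0 of 8 members passed, where 7.35% of all genes did. SLC40A1, at adjusted p = 0.0505, and TFRC, at 0.0577, came closest in edgeR. With SLC11A2 they made 3 members with an unadjusted p under 0.05, and in DESeq2 SLC40A1 and TFRC passed, at adjusted p of 0.00426 and 0.0118. Within A549, 3 of 8 members passed, 2 upward and 1 downward, against 17.7% of genes (9.94% upward, 7.8% downward). SKOV3 had 1 that passed, upward, against 9.08% (4.58% upward, 4.5% downward). MDA-MB-231 also had 1, upward, against 1.64% (0.813% upward, 0.831% downward), and DESeq2 called 3 members there, TFRC and also FTL (adjusted p = 0.00578) and SLC40A1 (0.0342).

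TFRC, the transferrin receptor (ENSG00000072274.8), had 443 CPM in MYC and 215.3 CPM in control A549 cells with tipifarnib, against 652.1 CPM in MYC and 366.9 CPM in control A549 cells with DMSO. In SKOV3 it had 486.3 CPM in MYC and 379.6 CPM in control cells with tipifarnib, against 383.7 CPM in MYC and 374.2 CPM in control cells with DMSO. The MDA-MB-231 values were 814.1 CPM in MYC and 518.3 CPM in control cells with tipifarnib, against 836.5 CPM in MYC and 573.7 CPM in control cells with DMSO. MYC cells stood above control cells in all 6 pairs, by little in SKOV3 with DMSO, and with the same vector tipifarnib libraries stood well below DMSO libraries in A549 alone. The MYC difference passed in A549, at 0.94 ± 0.12 (edgeR adjusted p = 0.00122), and in MDA-MB-231, at 0.60 ± 0.12 (adjusted p = 0.0487). It was 0.20 ± 0.12 in SKOV3 and 0.58 ± 0.16 over the lines, where it did not pass. TFRC fell with tipifarnib in A549, by 0.66 ± 0.12 (adjusted p = 0.0158), and the tipifarnib effect differed between the lines (adjusted p = 0.0389; 0.0349 to 0.143 without 1 of the 12 libraries). The A549 call for MYC held without any 1 of the 4 A549 libraries, at adjusted p of 0.00794 to 0.0133. Without any 1 of the 4 libraries of its line, the adjusted p was 0.353 to 0.53 for MYC in MDA-MB-231 and 0.0518 to 0.108 for tipifarnib in A549.

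STEAP3, the endosomal ferrireductase that readies transferrin iron for transport (ENSG00000115107.15), moved in opposite directions in SKOV3 and MDA-MB-231. In SKOV3 it had 65.4 CPM in MYC and 36.9 CPM in control cells with tipifarnib, against 44.9 CPM in MYC and 22.7 CPM in control cells with DMSO. MDA-MB-231 cells had 41.1 CPM with MYC and 50.5 CPM without in tipifarnib, against 57.2 CPM with MYC and 66.0 CPM without in DMSO. In A549 it was flatter, at 51.3 CPM in MYC and 49.1 CPM in control cells with tipifarnib, against 40.7 CPM in MYC and 47.2 CPM in control cells with DMSO. With tipifarnib it rose in SKOV3, by 0.62 ± 0.12 (edgeR adjusted p = 0.0098), and fell in MDA-MB-231, by 0.43 ± 0.12 (adjusted p = 0.0308). The tipifarnib effect differed between the lines (adjusted p = 0.0197; 0.0103 to 0.14 without 1 of the 12 libraries). The change in MDA-MB-231 minus that in SKOV3, which received the same dose, was -1.05 ± 0.17 (adjusted p = 0.0122). MYC cells of SKOV3 had more STEAP3 than control cells, by 0.90 ± 0.12 (adjusted p = 0.00386), and the MYC effect differed between the lines (adjusted p = 0.0128; 0.00937 to 0.0798 without 1 library), as it did for 3.07% of all genes. In DESeq2 the MYC effect also differed between lines for TFRC (adjusted p = 0.0133) and FTL (0.00367). Neither tipifarnib call held without any 1 of the 4 libraries of its line, with adjusted p of 0.0893 to 0.106 in SKOV3 and 0.173 to 0.279 in MDA-MB-231. The MYC call in SKOV3 was lost without MYC cells with DMSO (adjusted p = 0.0835) and without control cells with DMSO (0.0847).

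SLC11A2, the divalent metal transporter DMT1 (ENSG00000110911.10), moved little. MYC cells had 83.1 CPM with tipifarnib and 79.1 CPM with DMSO in A549, where control cells had 64.7 CPM and 67.3 CPM under the same treatments. In SKOV3 it lay between 41.9 and 45.8 CPM, with treatments overlapping. In MDA-MB-231 it had 47.5 CPM in MYC and 39.0 CPM in control cells with tipifarnib, against 37.2 CPM in MYC and 32.3 CPM in control cells with DMSO. The treatments did not overlap there, and the difference of 0.31 ± 0.11 did not pass (edgeR adjusted p = 0.0743). It was higher in MYC than in control cells in 6 of 6 pairs, by 0.21 ± 0.09, which did not pass (edgeR adjusted p = 0.192). The tipifarnib difference over the lines was 0.10 ± 0.09 (adjusted p = 0.534).

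**Figure D1:**
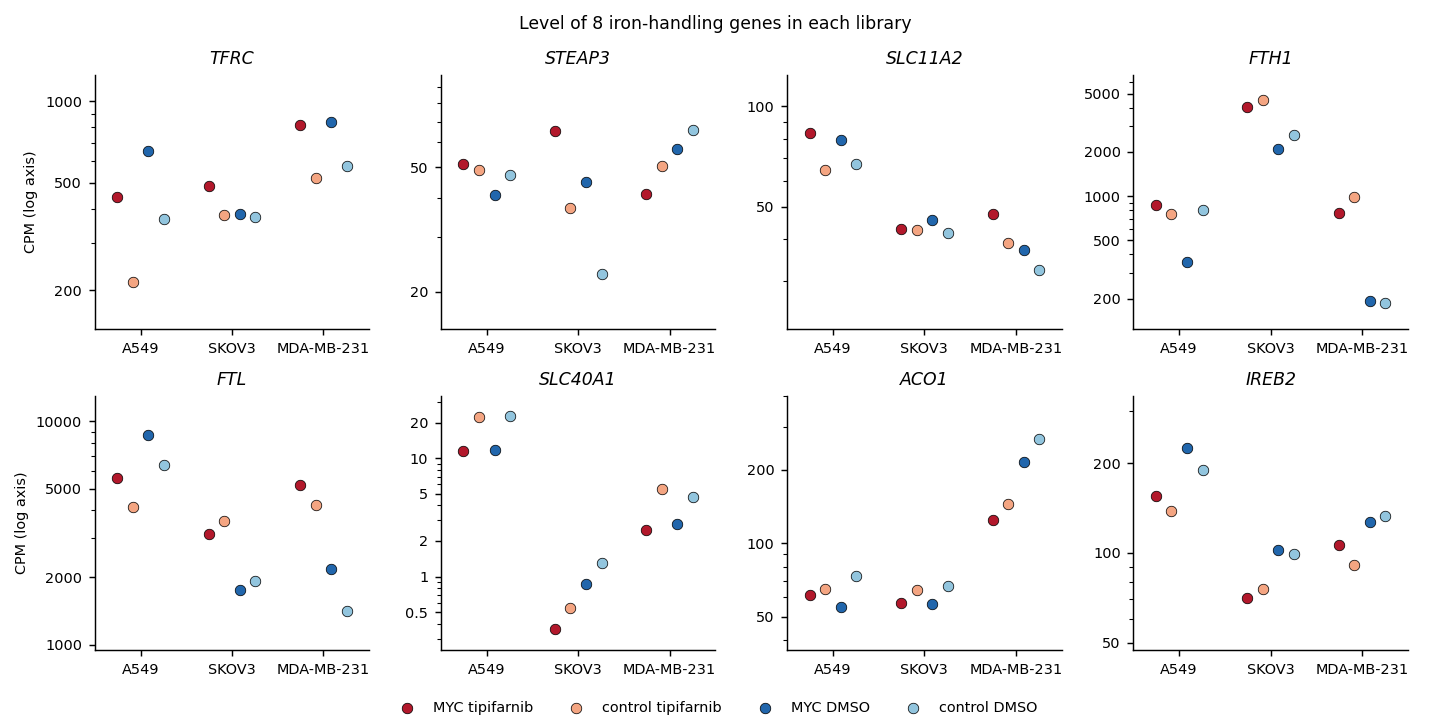
Level of each of the 8 measured genes in every library, in CPM on a log axis, by cell line, with each point 1 library and marks telling MYC from control cells and tipifarnib from DMSO. FTH1 in MDA-MB-231 separates by treatment, at 765.6 and 977.8 CPM with tipifarnib against 192.1 and 185.3 CPM with DMSO, and SLC40A1 in A549 separates by vector.

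FTH1, the ferritin heavy chain with the ferroxidase activity (ENSG00000167996.11), had 765.6 CPM in MYC and 977.8 CPM in control MDA-MB-231 cells with tipifarnib, against 192.1 CPM in MYC and 185.3 CPM in control cells with DMSO. SKOV3 had 4058 CPM in MYC and 4491 CPM in control cells with tipifarnib, against 2097 CPM in MYC and 2613 CPM in control cells with DMSO. A549 had 864.9 CPM in MYC and 749.3 CPM in control cells with tipifarnib, against 355.5 CPM in MYC and 808.5 CPM in control cells with DMSO. Tipifarnib libraries lay above DMSO libraries in SKOV3 and MDA-MB-231 with no overlap, while among A549 cultures the MYC cells with DMSO stood alone, below the other 3 libraries. Over the lines FTH1 rose with tipifarnib by 1.19 ± 0.27, in 5 of 6 pairs (edgeR adjusted p = 0.0229). Leaving out a line gave 1.54 without A549 (adjusted p = 0.0257), 1.37 with SKOV3 left out (0.0787) and 0.73 with MDA-MB-231 left out (0.123). With each line's counts summed into 1 pair, the adjusted p was 0.14. In MDA-MB-231 it was 2.20 ± 0.27 (adjusted p = 0.000872) and held without any 1 of that line's 4 libraries (0.0343 to 0.0451). SKOV3, at 0.87 ± 0.26, just missed the threshold (adjusted p = 0.0518), and A549, at 0.59 ± 0.26, did not pass (0.204). In A549 the pair of MYC cells differed by 1.28 and the pair of control cells by -0.11, so that without either control library the adjusted p was 0.0112 or 0.0117. With no low count filter it was 2.12e-05 for the same difference in A549. The tipifarnib effect differed between lines at adjusted p = 0.0465 in edgeR and 0.253 in DESeq2. In edgeR this difference passed in 4 of 12 fits without 1 library. It did not pass without 1 of the 8 libraries of SKOV3 and MDA-MB-231 (0.0636 to 0.271). With MYC, FTH1 differed by -0.36 ± 0.26 over the lines (adjusted p = 0.434) and was lower in 4 of 6 pairs.

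FTH1 counts carry a limit of their own. In GENCODE 29, 62.4% of the gene's exon bases also lie in exons of BEST1 on the opposite strand, and the strand setting of the counting is not given in the sources used here. BEST1 had 0 to 166 reads a library and FTH1 3859 to 115460, while 2345537 to 3457372 reads a library were set aside as ambiguous between genes. How many of those came from FTH1 was not tested. The 25 rows of FTH1 pseudogenes held 0.0109% to 0.441% as many reads as FTH1, and how reads that fit several places were treated is not given in the sources used here.

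FTL, the ferritin light chain (ENSG00000087086.9), was the member whose tipifarnib response differed most clearly between lines. A549 had 5595 CPM in MYC and 4152 CPM in control cells with tipifarnib, against 8694 CPM in MYC and 6347 CPM in control cells with DMSO. SKOV3 had 3121 CPM in MYC and 3563 CPM in control cells with tipifarnib, against 1756 CPM in MYC and 1935 CPM in control cells with DMSO. MDA-MB-231 had 5204 CPM in MYC and 4223 CPM in control cells with tipifarnib, against 2173 CPM in MYC and 1412 CPM in control cells with DMSO. Both tipifarnib libraries lay below both DMSO libraries in A549, and above both in the SKOV3 and MDA-MB-231 cells. FTL fell in A549, by 0.62 ± 0.12 (edgeR adjusted p = 0.0167). It rose by 0.86 ± 0.12 in SKOV3 (0.00189) and by 1.42 ± 0.12 in MDA-MB-231 (0.000206). Both rises held without any 1 library of their line, at adjusted p of 0.0135 to 0.0246 and 0.0189 to 0.0204, and the A549 fall did not (0.0737 to 0.097). The difference between lines had an adjusted p of 0.00189 and held without any 1 of the 12 libraries (at most 0.0363), where 7.69% of all genes differed. Over the lines the mean difference was 0.56 ± 0.31 (adjusted p = 0.268), with 1.14 without A549 (0.023), 0.40 with SKOV3 left out (0.586) and 0.13 with MDA-MB-231 left out (0.898). MYC cells had more FTL than control cells in A549, by 0.44 ± 0.12 (adjusted p = 0.0304; 0.111 to 0.17 without 1 of the 4 libraries), and in MDA-MB-231 the difference was 0.46 ± 0.12 (0.0802).

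The dose was lower in A549 than in the other lines, so dose and line cannot be told apart for A549. Between MDA-MB-231 and SKOV3, which received 20 µM, the tipifarnib effect differed for 7.34% of genes. There the difference was 0.56 ± 0.17 for FTL (edgeR adjusted p = 0.0717), 1.33 ± 0.36 for FTH1 (0.0565) and -0.27 ± 0.17 for TFRC (0.366), and none of these passed.

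**Figure D2:**
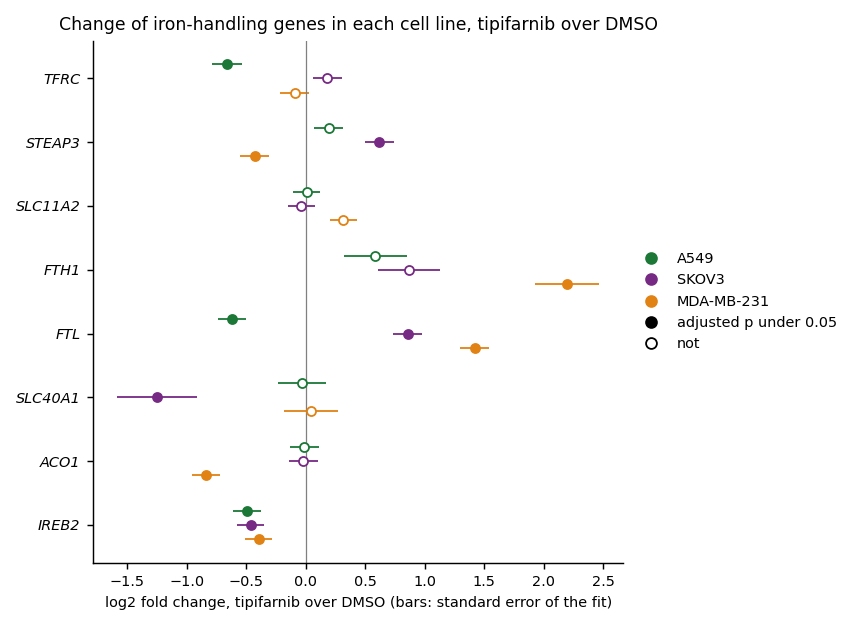
Log2 fold change of each gene, tipifarnib over DMSO, within each cell line, with bars for the standard error of the fit and filled points for an edgeR adjusted p under 0.05. FTL lies left of 0 in A549 (-0.62) and right of it in SKOV3 (0.86) and MDA-MB-231 (1.42), while IREB2 lies left of 0 in all 3 lines (A549 -0.50, SKOV3 -0.46, MDA-MB-231 -0.40).

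SLC40A1, the iron exporter ferroportin (ENSG00000138449.6), was lower in MYC than in control cells in 6 of 6 pairs. A549 had 11.4 CPM in MYC and 22.2 CPM in control cells with tipifarnib, against 11.8 CPM in MYC and 22.5 CPM in control cells with DMSO. MDA-MB-231 had 2.49 CPM in MYC and 5.49 CPM in control cells with tipifarnib, against 2.8 CPM in MYC and 4.71 CPM in control cells with DMSO. In SKOV3 8 reads were counted in MYC and 14 in control cells with tipifarnib, against 23 in MYC and 30 in control cells with DMSO, so that line is thinly measured. The vectors separate without overlap in A549 and MDA-MB-231, and the treatments separate in SKOV3. MYC cells had less SLC40A1 in A549, by -0.95 ± 0.20 (edgeR adjusted p = 0.0119; 0.0673 to 0.106 without 1 of the 4 libraries). The difference was -0.95 ± 0.23 in MDA-MB-231 (adjusted p = 0.0676) and -0.86 ± 0.23 over the lines (0.0505). With tipifarnib it fell in SKOV3, by 1.25 ± 0.33 (adjusted p = 0.0354; 0.211 to 0.23 without 1 of the 4 libraries), and differed by -0.31 ± 0.23 over the lines (0.423).

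IREB2, which encodes the sensor IRP2 (ENSG00000136381.8), was lower in tipifarnib than in DMSO in 6 of 6 pairs. A549 had 155.1 CPM in MYC and 138.4 CPM in control cells with tipifarnib, against 224.9 CPM in MYC and 189.6 CPM in control cells with DMSO. SKOV3 had 70.6 CPM in MYC and 75.6 CPM in control cells with tipifarnib, against 102.4 CPM in MYC and 99.3 CPM in control cells with DMSO. MDA-MB-231 had 106.4 CPM in MYC and 91.3 CPM in control cells with tipifarnib, against 127.1 CPM in MYC and 132.7 CPM in control cells with DMSO. The treatments did not overlap within any line. IREB2 fell by 0.45 ± 0.08 over the lines (edgeR adjusted p = 0.00695), by 0.50 ± 0.12 for A549 (0.0328), 0.46 ± 0.12 for SKOV3 (0.0276) and 0.40 ± 0.12 for MDA-MB-231 (0.0356). No difference between the lines' effects was detected (adjusted p = 0.908). Left out in turn, A549 gave an adjusted p of 0.071 over the lines, SKOV3 0.0435 and MDA-MB-231 0.11, with differences of -0.47 to -0.42, and counts summed into 1 pair a line gave 0.142. Within a line the lowest adjusted p without 1 of its 4 libraries was 0.112 for A549, 0.0963 for SKOV3 and 0.116 for MDA-MB-231. The MYC difference was 0.09 ± 0.08 over the lines (adjusted p = 0.54).

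ACO1, which encodes IRP1, the sensor that serves as cytosolic aconitase when it carries an iron-sulfur cluster (ENSG00000122729.14), fell with tipifarnib in MDA-MB-231. That line had 125.2 CPM in MYC and 144.7 CPM in control cells with tipifarnib, against 215.1 CPM in MYC and 268.8 CPM in control cells with DMSO. A549 libraries lay between 54.6 and 73.7 CPM and SKOV3 libraries between 56.2 and 66.9 CPM, with treatments overlapping in both. The fall in MDA-MB-231 was by 0.84 ± 0.12 (edgeR adjusted p = 0.00157), and it was lost without control cells with tipifarnib (0.058) or with DMSO (0.0567). The tipifarnib effect differed between the lines (adjusted p = 0.0267; 0.011 to 0.169 without 1 of the 12 libraries), and in MDA-MB-231 minus SKOV3 it was -0.82 ± 0.17 (0.0238). ACO1 was lower in MYC than in control cells in 6 of 6 pairs, by -0.24 ± 0.14, which did not pass (adjusted p = 0.315).

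**Figure D3:**
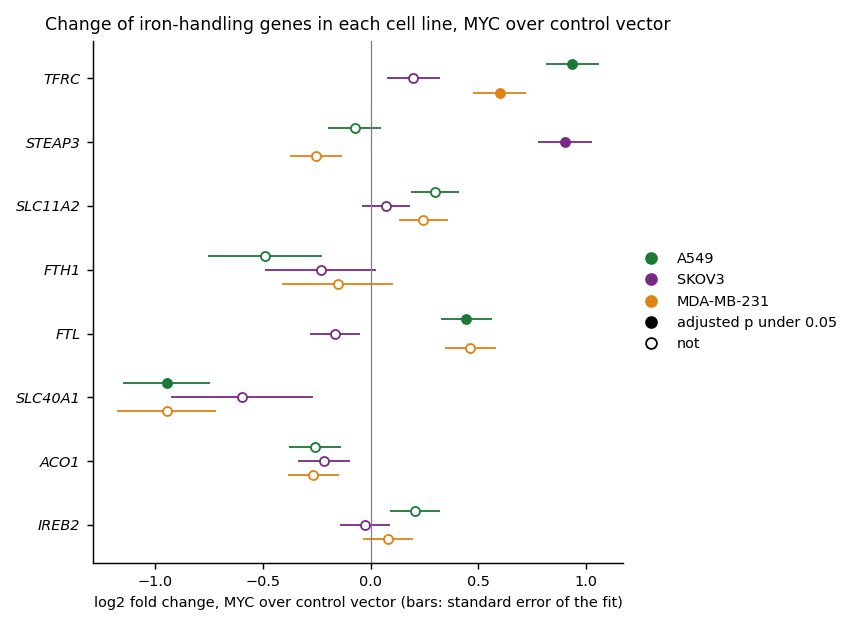
Log2 fold change of each gene, MYC over control vector, within each cell line, with bars for the standard error of the fit and filled points for an edgeR adjusted p under 0.05. TFRC lies right of 0 (A549 0.94, SKOV3 0.20, MDA-MB-231 0.60) and SLC40A1 left of it (A549 -0.95, SKOV3 -0.60, MDA-MB-231 -0.95), and STEAP3 stands out to the right in SKOV3 alone (0.90).

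Whether MYC changed the response to tipifarnib was tested as the interaction over the 3 lines. It passed for 0 of 17096 genes in edgeR and for 0 in DESeq2, with 125 and 118 genes at an unadjusted p under 0.05. Each member had an adjusted p of 1. FTH1 had an interaction of 0.44 ± 0.53, a positive value meaning a larger rise with tipifarnib in MYC cells, and without A549 it was -0.08. With each line given its own MYC and tipifarnib effects, 0 genes passed in edgeR and 625 had an unadjusted p under 0.05. The shared model counts differences between the lines' effects as error. A lack of calls therefore does not show that MYC left the response unchanged.

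The balance of receptor to heavy chain reads moved with both factors. The number of TFRC reads per FTH1 read was 0.512 in MYC and 0.287 in control A549 cells with tipifarnib, against 1.83 in MYC and 0.454 in control cells with DMSO. It was 0.12 in MYC and 0.0845 in control SKOV3 cells with tipifarnib, against 0.183 in MYC and 0.143 in control cells with DMSO. In MDA-MB-231 it was 1.06 in MYC and 0.53 in control cells with tipifarnib, against 4.36 in MYC and 3.1 in control cells with DMSO. The ratio was lower in tipifarnib in 6 of 6 pairs and higher in MYC cells in 6 of 6 pairs. Lengths of the genes differ, so only changes of this ratio between libraries are read, and it is a description with no test. FTH1 reads per FTL read were higher in tipifarnib in 5 of 6 pairs and lower in MYC cells in 5 of 6 pairs. They lay at 1.19 to 1.35 in the 4 SKOV3 libraries and at 0.0409 to 0.231 in the 8 others.

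**Figure D4:**
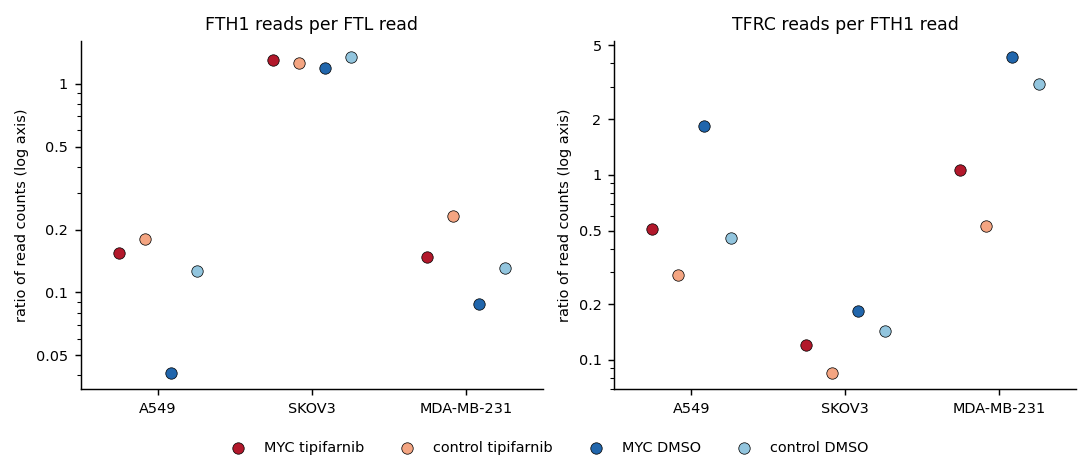
Reads of TFRC per read of FTH1 and reads of FTH1 per read of FTL in each library, on log axes, by cell line, with marks for vector and treatment. Receptor to heavy chain ratios reach 4.36 in MDA-MB-231 MYC cells with DMSO and go down to 0.0845 in SKOV3 control cells with tipifarnib.

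Levels also differed between the lines, for members as for most genes. They differed between A549 and SKOV3 for 6 of 8 members and 68.9% of all genes, between A549 and MDA-MB-231 for 7 of 8 and 67.9%, and between SKOV3 and MDA-MB-231 for 7 of 8 and 71.3%. SLC40A1 averaged 16.96 ± 6.21 CPM in A549, 3.87 ± 1.46 CPM in MDA-MB-231 and 0.766 ± 0.413 CPM in SKOV3 (SD, n = 4 libraries a line). FTH1 was highest in SKOV3, at 3315 ± 1142 CPM, followed by A549, at 694.5 ± 230.9 CPM, and MDA-MB-231, at 530.2 ± 403.7 CPM. The last step, of 0.74 ± 0.18 on the log2 scale, passed in edgeR (adjusted p = 0.00475) and not without MYC cells with tipifarnib or control cells with DMSO of MDA-MB-231 (at most 0.0598), nor in DESeq2. These means pool both treatments. In control cells with tipifarnib FTH1 was lower in A549, at 749.3 CPM, than in MDA-MB-231, at 977.8 CPM, and in the other groups it was higher in A549. FTL was highest in A549, at 6197 ± 1897 CPM, and MDA-MB-231, at 3253 ± 1761 CPM, and SKOV3, at 2594 ± 886 CPM, were close (adjusted p = 0.0435, up to 0.298 without 1 library). This order depended on treatment. Control cells with tipifarnib had 4152 CPM in A549 and 4223 CPM in MDA-MB-231, against 6347 CPM and 1412 CPM with DMSO. In MYC cells A549 stayed above MDA-MB-231 with either treatment. TFRC, at 685.7 ± 163.1 CPM, and ACO1, at 188.5 ± 66.0 CPM, were highest in MDA-MB-231, and for neither did A549 against SKOV3 pass (adjusted p = 0.59 and 0.579). IREB2, at 177.0 ± 38.4 CPM, and SLC11A2, at 73.6 ± 8.9 CPM, were highest in A549. SKOV3 against MDA-MB-231 did not pass for SLC11A2 (adjusted p = 0.0902), nor A549 against MDA-MB-231 for STEAP3 (0.103). A549 against SKOV3 passed for STEAP3 at adjusted p = 0.0288, with 0.0185 to 0.156 when 1 library was left out. STEAP3 shares 11% of its exon bases with STEAP3-AS1 on the opposite strand, which had 1 to 18 reads a library.

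After each line's mean was subtracted, the gene most like each member over the 12 libraries was taken from 11522 genes, as a description in which all genes share the same libraries. It was PSMA5 for TFRC (Pearson r = 0.972), TBC1D17 for FTH1 (0.986), PGD for FTL (0.957), CCDC102A for SLC40A1 (0.939), CHD4 for IREB2 (0.98), SCAF1 for ACO1 (0.96), MRPS18C for STEAP3 (0.905) and PAXIP1-DT for SLC11A2 (0.937). PGD encodes an enzyme of the pentose phosphate pathway and PSMA5 a proteasome subunit.

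Other genes of iron handling were counted in 5 lists, and in edgeR over both genotypes 8 of the 70 tested rose with tipifarnib and 2 fell, against 4.66% and 6.63% of all genes. Among 14 tested genes of iron import and reduction 3 rose and 1 fell, with a median of 0.13 on the log2 scale against 0.00 over all genes. CYBRD1, a ferric reductase of the plasma membrane, rose by 0.65 ± 0.12 (adjusted p = 0.011), in 6 of 6 pairs, and LRP1, a receptor that takes up heme bound to hemopexin, by 0.60 ± 0.17 (0.0496). HFE, a partner of the transferrin receptor, fell by 0.46 ± 0.13 (adjusted p = 0.0473). LCN2, which binds iron carried by siderophores, rose by 2.17 ± 0.38 (adjusted p = 0.00699). It had 462 reads in MYC and 87 in control A549 cells with tipifarnib, against 124 in MYC and 62 in control cells with DMSO. SKOV3 had 893 reads in MYC and 349 in control cells with tipifarnib, against 81 in MYC and 60 in control cells with DMSO. Each MDA-MB-231 library had only 0 to 4 reads, so there the fitted change depends on the prior count.

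Of 15 tested genes of heme synthesis and breakdown 2 rose and none fell, with a median of 0.11. HMOX1, the enzyme that frees iron from heme, rose by 2.40 ± 0.63 (edgeR adjusted p = 0.038). In SKOV3 it had 364.9 CPM in MYC and 191.2 CPM in control cells with tipifarnib, against 33.5 CPM in MYC and 23.6 CPM in control cells with DMSO. MDA-MB-231 had 128.9 CPM in MYC and 175.3 CPM in control cells with tipifarnib, against 13.3 CPM in MYC and 11.7 CPM in control cells with DMSO. A549 had 50.4 CPM in MYC and 131.5 CPM in control cells with tipifarnib, against 64.7 CPM in MYC and 104.8 CPM in control cells with DMSO. The treatments lie far apart in SKOV3 and MDA-MB-231 and overlap in A549. SKOV3 changed by 3.24 ± 0.21 (adjusted p = 0.000163), MDA-MB-231 by 3.59 ± 0.22 (5.92e-05) and A549 by -0.01 ± 0.19 (0.994). TMEM14C, a transporter of heme precursors, rose by 0.39 ± 0.09 (adjusted p = 0.0193).

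Among 10 tested genes of iron sensing, chaperones and ferritin turnover 1 rose and 1 fell with tipifarnib, with a median of -0.13. EPAS1, the hypoxia factor HIF2A, whose message in humans also carries an iron-responsive element, rose by 1.48 ± 0.32 (edgeR adjusted p = 0.0195), in 6 of 6 pairs. CISD1, an iron-sulfur protein of the outer mitochondrial membrane, fell by 0.32 ± 0.08 (adjusted p = 0.029). Of 25 tested genes of mitochondrial iron and iron-sulfur assembly, 2 rose and none fell, with a median of -0.05. These were the scaffold ISCU, by 0.40 ± 0.09 (adjusted p = 0.0198), and the mitochondrial iron importer SLC25A37, by 0.55 ± 0.11 (0.0123), each in 6 of 6 pairs. Of 6 tested genes of iron export and its hormones 0 passed in edgeR and 0 had an unadjusted p under 0.05, with a median of 0.12.

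With MYC, 4 of 25 genes of mitochondrial iron and iron-sulfur assembly rose and none fell, with a median of 0.22 and positive differences in 20, where 4.5% of all genes rose and 2.84% fell. BOLA3, an assembly factor for iron-sulfur clusters, rose by 0.51 ± 0.13 (edgeR adjusted p = 0.0431), LYRM4, a partner of the cysteine desulfurase, by 0.40 ± 0.09 (0.0306), ISCU by 0.36 ± 0.09 (0.0398) and the cytosolic assembly factor CIAO1 by 0.30 ± 0.07 (0.0407). In iron import and reduction none rose and 2 of 14 fell, CYBRD1 by 0.80 ± 0.12 (adjusted p = 0.0108) and LRP1 by 1.08 ± 0.17 (0.0117), with a median of -0.05. In iron export and its hormones 2 of 6 rose, BMP6, an inducer of hepcidin in liver, by 1.08 ± 0.23 (adjusted p = 0.0265) and the heme exporter FLVCR1 by 0.50 ± 0.13 (0.0431). CISD1 rose by 0.46 ± 0.08 (adjusted p = 0.0141), the only one of 10 in its list, and 0 of 15 heme genes passed in edgeR, with 4 at an unadjusted p under 0.05. Of the 19 list calls over the lines, for tipifarnib or MYC, 0 stayed under the edgeR threshold without each of the 3 lines in turn, with adjusted p up to 0.346, and all 19 kept their sign.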

How the data were processed

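RNA-seq of 12 cultures used libraries that came from a SMARTER mRNA-Seq kit, per the labels' protocols. Per the submitters' processing notes, TopHat2, HTSeq, DESeq2 and the build hg19 were used, with no versions given, and the strand setting of the counting is not given in the sources used here. The deposited table holds whole-number read counts per gene, with 57820 gene rows and 5 HTSeq summary rows, which held 17.5% to 19.9% of counts and were left out. Symbols were found for 51996 identifiers in an annotation of another build, so no gene coordinates are given, and transcript positions come from GENCODE 29. Mitochondrial genes took 3.65% to 5.59% of gene counts.

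Genes were kept with filterByExpr over the 4 groups and scaled with TMM, and the edgeR 4.0.16 quasi-likelihood test was used with Benjamini-Hochberg adjustment over the 17096 genes in each of 14 comparisons (R 4.3.3). Comparisons over the lines used cell line as block and group (6 residual degrees of freedom). Comparisons within and between lines gave each line its own mean, MYC and tipifarnib effects (3 residual degrees of freedom). The block follows from the design, since libraries of 1 line share their origin. After centring on group means, libraries of 1 line correlated across genes at r of 0.829 to 0.922 in 18 pairs. Pairs from different lines, 36 in number, had r of -0.551 to -0.307. Centring on a mean of 3 lines itself pulls r between lines below 0, so these values are a description and no test of the block. Over the lines the model takes the 2 pairs of a line as independent, so those p-values can be too small. The method was tested on simulated counts, drawn independently for each library around its line's mean. That simulation therefore cannot show whether dependence between the pairs of a line makes p-values too small.

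Members and lists were chosen with earlier results of these data known. Named beside the members were MYC and, for each list, up to 4 genes that passed over both genotypes or both treatments. The farnesyltransferase subunit genes FNTA and FNTB, checked as the drug's target, differed with tipifarnib by 0.30 ± 0.10 (edgeR adjusted p = 0.0937) and -0.41 ± 0.14 (0.089). List genes not tested were STEAP4, CD163, HEPH, HEPHL1, HAMP, HJV, BOLA2, FTMT and FDX2. Alternatives were DESeq2 1.42.0 and its size factors, no low count filter, no block, sums per line, the mean of the lines' own effects, pseudogene counts added to ferritin, and leaving out each line or library. The comparison of SKOV3 with MDA-MB-231 alone was added after the data had been seen.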

Additional observations from a re-analysis of the deposited data

Results flagged for a closer look

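For 5 members the tipifarnib effect differed between the 3 lines in the edgeR quasi-likelihood F-test over all genes, against 7.69% of all genes, and the A549 dose was lower. The adjusted p was 0.0389 for TFRC, 0.0465 for FTH1, 0.00189 for FTL, 0.0267 for ACO1 and 0.0197 for STEAP3. DESeq2 called 4 of these 5, with 0.253 for FTH1, and in edgeR only FTL, of these 5, passed whichever of the 12 libraries was left out. In the same test HMOX1 had 0.00116 and EPAS1 0.0122. For MDA-MB-231 minus SKOV3, which received the same dose, the EPAS1 difference was -1.56 ± 0.31 and passed (edgeR adjusted p = 0.0208). The HMOX1 difference there was 0.35 ± 0.28 and did not pass (0.481). Of the 5 members, STEAP3 (0.0122) and ACO1 (0.0238) passed in this comparison, and FTH1 (0.0565), FTL (0.0717) and TFRC (0.366) did not. EPAS1 rose in SKOV3, by 2.72 ± 0.23 (edgeR adjusted p = 0.000327), and in MDA-MB-231, by 1.16 ± 0.22 (0.0058), and differed by 0.60 ± 0.21 in A549 (0.118). The MYC effect differed between the lines for STEAP3 (edgeR adjusted p = 0.0128) and for HMOX1 (0.0214), and in DESeq2 for 3 members, STEAP3, TFRC and FTL. HMOX1 was lower in MYC cells of A549, by -1.04 ± 0.19 (edgeR adjusted p = 0.00651), and higher in MYC cells of SKOV3, by 0.73 ± 0.20 (0.0475).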

How the results depend on the processing

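The replicate block, here the cell line, decided the calls over the lines: without it 0 genes passed in edgeR for tipifarnib and 0 for MYC, with 968 and 559 at an unadjusted p under 0.05, against 1929 and 1256 that passed with it. Summed per line into 3 pairs, 91 and 0 passed (2889 and 3580 unadjusted), and FTH1 (edgeR adjusted p = 0.14) and IREB2 (0.142) did not. With the mean of the lines' own effects 4935 and 4158 passed, and DESeq2 gave 2997 and 2405. With that mean, 7 results of members over the lines that had not passed did pass, and 9 kept their call. DESeq2 also gave 873 for MYC in MDA-MB-231, against 281, and it found line-dependent effects for 2217 genes with tipifarnib and 974 with MYC, against 1314 and 524. With no low count filter 2321 passed for tipifarnib in A549, 2441 for MYC in SKOV3 and 1309 for MYC in MDA-MB-231, against 1373, 1553 and 281, and 3198 and 1843 differed between lines. Among results of members with no filter, 9 more passed, 1 no longer passed, 2 turned sign and 100 kept their call. Without 1 line, 87 to 1174 genes passed for tipifarnib and 10 to 148 for MYC. Without 1 library of the line, tipifarnib gave 317 to 569 in A549, 492 to 1469 in SKOV3 and 528 to 706 in MDA-MB-231, and MYC gave 1051 to 2067, 135 to 835 and 0 to 0 (1527 to 1829 unadjusted). A line then keeps 1 pair for an effect, whose spread is taken from the other lines. Effects that differ between lines then numbered 65 to 1949 for tipifarnib and 136 to 641 for MYC. Adding pseudogene counts changed no call. The cause of these shifts was not tested.

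Of 17 calls of members within lines, 4 held without any 1 library of the line, and all 17 kept their sign. ACO1 with tipifarnib turned to 0.0065 in A549 with DESeq2 size factors, 0.0063 with DESeq2 and 0.0010 with no filter, and to 0.010 in SKOV3 with no filter. Among differences that did not pass, leaving out 1 line or library turned the sign of the following log2 values. Over the lines with tipifarnib the range was -0.37 to 0.053 for TFRC and -0.11 to 0.40 for STEAP3, and with MYC -0.16 to 0.39 for STEAP3 and -0.59 to 0.29 for HMOX1. Interactions ranged over -0.083 to 0.79 for FTH1, -0.0011 to 0.10 for SLC11A2 and -0.12 to 0.10 for IREB2. With tipifarnib in A549 it was -0.12 to 1.28 for FTH1, -0.19 to 0.17 for ACO1 and -0.064 to 0.074 for SLC11A2. In SKOV3 it was -0.054 to 0.016 for ACO1 and -0.093 to 0.026 for SLC11A2, and in MDA-MB-231 -0.17 to 0.23 for SLC40A1. With MYC it was -1.19 to 0.21 for FTH1 and -0.22 to 0.071 for STEAP3 in A549, -0.098 to 0.044 for IREB2 in SKOV3, and -0.062 to 0.23 for IREB2 and -0.35 to 0.053 for FTH1 in MDA-MB-231. Levels in A549 against SKOV3 ranged over -0.032 to 0.146 for ACO1 and -0.14 to 0.026 for TFRC. With 8 to 30 reads of SLC40A1 in SKOV3, depth limits that gene there.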
